A study of Mus musculus with 9 samples.

Results

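A set of 9 genes of matrix remodelling and the wound response were followed in the cochlea of the mouse: Timp1, Timp2, Timp3, Plaur, Plau, Ccn1, Ccn2, Tnc and Lox. Every probe set annotated to one of these 9 genes was taken, which gave 24 of the 45037 probe sets that were not controls, and 9 of the 18193 genes with a probe set of their own. Of the 24 probe sets, 18 from 8 genes had signals of 200 or above on 3 or more of the 9 arrays and were tested. The other 6 (2 of Timp2, both of Plau, 1 of Tnc and 1 of Lox) stayed under 200 on all 9 arrays and are given as values only.

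The tissue was Reissner's membrane, the thin sheet between scala media and scala vestibuli, from adult mice of a strain that the labels do not name. It was cut out by hand, and all 3 groups are therefore dissected, pooled material. The dexamethasone group was explants kept for 24 h with dexamethasone, a synthetic glucocorticoid, the incubated group was explants kept for 24 h without it, and the fresh group was extracted with no incubation. The dose was 100 nM by the design text and the label of array A, while the labels of arrays B and C type it in mM. Each group had 3 arrays, lettered A to C, hybridized from pooled membranes, so p-values here cover only array-to-array spread, which can be technical. The comparison of incubated with fresh membranes addressed what 24 h as an explant did, and that of dexamethasone with incubated membranes addressed what the glucocorticoid did in explants.

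Extracellular matrix is remodelled by metalloproteinases, which cleave its proteins, and TIMP proteins inhibit those enzymes. Urokinase, the product of Plau, turns plasminogen into plasmin at the cell surface, where it is held by the receptor encoded by Plaur. The matricellular proteins CCN1, CCN2 and tenascin-C signal from the matrix to cells in injured tissue, and lysyl oxidase cross-links collagen and elastin. CCN1 and CCN2 are textbook targets of the coactivators YAP and TAZ with TEAD factors, while the AP-1 complex drives many wound response genes.

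Promoter sequence is shown for Timp1, Plaur and Ccn1, the members with the largest fitted increases in explants. RefSeq (GRCm38.p6) gave 7 windows for 6 of the 9 members, and Plau, Ccn2 and Lox are named only. Each window below is the 250 bases before a transcription start site, written on the gene's strand, with matches to a searched motif in capitals. The Timp1 window is chrX:20869916-20870165 on the plus strand and ends at the annotated start of the gene. The Plaur window is chr7:24462233-24462482 on the plus strand, which lies inside the gene's annotated span, 24460937 to 24475970. The Ccn1 window is chr3:145649986-145650235 on the minus strand, beside the gene at 145646971 to 145649985.
Timp1: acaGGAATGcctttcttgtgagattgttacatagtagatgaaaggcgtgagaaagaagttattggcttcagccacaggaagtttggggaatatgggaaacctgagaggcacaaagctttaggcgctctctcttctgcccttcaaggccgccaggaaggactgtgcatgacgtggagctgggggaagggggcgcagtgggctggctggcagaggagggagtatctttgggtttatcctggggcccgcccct
Plaur: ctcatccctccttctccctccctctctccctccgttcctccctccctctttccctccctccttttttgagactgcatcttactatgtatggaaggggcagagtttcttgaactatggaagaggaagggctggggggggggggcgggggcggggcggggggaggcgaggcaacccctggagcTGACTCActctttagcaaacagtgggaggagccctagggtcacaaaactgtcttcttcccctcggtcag
Ccn1: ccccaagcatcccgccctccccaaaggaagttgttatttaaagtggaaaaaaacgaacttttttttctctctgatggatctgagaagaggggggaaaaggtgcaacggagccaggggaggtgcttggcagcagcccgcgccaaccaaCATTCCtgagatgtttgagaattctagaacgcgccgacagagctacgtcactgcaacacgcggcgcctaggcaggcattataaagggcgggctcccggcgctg

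The capitals in Timp1 mark the TEAD motif GGAATG at positions -247 to -242 from the start site, and those in Ccn1 mark the same motif on the opposite strand (CATTCC) at -103 to -98. The capitals in Plaur mark the AP-1 motif TGANTCA at -69 to -63. Both strands were searched, and no printed match overlapped another. Among 32851 promoter windows of the same 250 bases, 12.6% held the TEAD motif and 6.75% the AP-1 motif, against 2 and 1 of the 7 member windows. Neither the CArG box, bound by serum response factor and found in 1.47% of all windows, nor the glucocorticoid response element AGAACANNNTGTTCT, found in 0.00913%, had a match in the 7. These matches describe the letters of the windows and show no binding.

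Signals were linear intensities whose trimmed mean was 500 throughout. Log2 signals correlated across probe sets at 0.984 to 0.989 within groups and 0.928 to 0.976 between groups, and no pair of arrays held identical values. The share of probe sets at 200 or above was 37.4% to 37.7% on dexamethasone arrays, 36.0% to 36.4% on incubated arrays and 39.4% on each fresh array. Changes are differences of group means of log2(signal + 32) ± SE from one limma fit over 18913 tested probe sets (10242 genes), n = 3 arrays per group, called at an adjusted p under 0.05. Where all 3 arrays of a group lay under 200, a working floor and not a detection limit, the other group's geometric mean over 200 is given as "at least" that fold. With 3 arrays a group, precision is limited throughout.

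The labelled tissue was checked against markers of the cells it could hold. All 7 epithelial markers were called higher in incubated than in fresh membranes, and their summed signals spanned 77810 to 81730 in dexamethasone, 67420 to 69140 in incubated and 27640 to 28670 in fresh arrays. Of 7 tested mesothelial and fibroblast markers, 1 was called higher and 5 lower in incubated than in fresh membranes, with sums of 14660 to 15450, 12450 to 13600 and 28120 to 29450 in the dexamethasone, incubated and fresh arrays. The mesothelial markers Upk3b, Wt1 and Lrrn4 did not reach the filter. All 6 markers of cochlear fibrocytes, cells of the neighbouring lateral wall, were called lower in incubated than in fresh membranes, with sums of 1561 to 1711 in dexamethasone, 1885 to 1999 in incubated and 57770 to 59630 in fresh arrays. All 6 neuronal markers, 4 supporting cell markers and 4 strial markers were also called lower in incubated than in fresh membranes. Macrophage markers had 5 of 8 called higher and 2 lower in that comparison, with sums of 8113 to 8197, 7424 to 7872 and 6903 to 7197 in dexamethasone, incubated and fresh arrays, while Aif1 and Itgam did not reach the filter. Median centring, which raised incubated against fresh membranes, changed the mesothelial and fibroblast split to 2 higher and 3 lower of 6 tested. It left the other calls named above as they were, apart from 1 more macrophage marker called higher and 5 neuronal markers tested. With dexamethasone, 6 epithelial markers were called higher and 1 lower than in incubated membranes (0 and 4 under hybridization-control scaling), against 2 and 3 of the mesothelial and fibroblast markers (1 and 4), 3 and 2 of the fibrocyte markers (2 and 3) and 3 and 3 of the macrophage markers (1 and 5). Of 7 glucocorticoid receptor targets, among them Fkbp5, Tsc22d3 and Per1, 6 were called higher and 1 lower with dexamethasone than in incubated membranes, and 5 and 1 under hybridization-control scaling. In incubated against fresh membranes 0 of the 7 were called higher and 6 lower, or 1 and 6 under median centring. Dexamethasone against fresh had 2 called higher and 5 lower. Their summed signals were 30640 to 33210 in dexamethasone, 18800 to 20160 in incubated and 36800 to 37230 in fresh arrays. Lists of endothelial, Schwann and bone cells had only 2, 2 and 1 tested genes. In a bulk tissue, fewer cells of a type and less RNA per cell cannot be told apart, and the part that these shifts in marker levels play in the changes below was not tested.

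In membranes kept for 24 h without dexamethasone, 14 of the 18 tested member probe sets were called higher than in fresh membranes, 3 lower and 1 neither way. Among all 18913 tested probe sets, 35.0% were called higher and 40.1% lower. The median log2 change was 1.12 over the 18 and -0.05 over all tested. Timp1, Plaur, Tnc, the Ccn1 probe sets 1457823_at and 1442340_x_at and Timp3 1419088_at lay under 200 on all fresh arrays and were tested only through cultured arrays, so these counts and medians describe the tested probe sets and support nothing further. The upward calls came from Timp1, Timp3, Plaur, Ccn1, Tnc, Lox and 1 probe set of Timp2, and the downward calls from Ccn2 and the other 2 called probe sets of Timp2. Under quantile normalization, median centring and scaling to the hybridization controls, 14 of the 18 kept their direction and their call, and neither Ccn2 nor the 2 downward Timp2 probe sets did in all 3.

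With dexamethasone, 10 of the 18 were called higher than in incubated membranes, 4 lower and 4 neither way, against 27.1% called higher and 25.5% called lower of all tested probe sets. The upward calls came from the 4 tested probe sets of Ccn1, the 2 of Lox, Ccn2 and some of Timp2 and Timp3. The downward calls came from Timp1, Tnc and other probe sets of Timp2 and Timp3. Several calls thus shared a gene, and these counts are not counts of genes. The median log2 change was 0.18 over the 18 and 0.01 over all tested. How the arrays were scaled mattered more here. Relative to the deposited scaling, the hybridization controls moved the median of all tested probe sets to -0.46, since their mean level was 2047 to 2182 on dexamethasone arrays, against 1453 to 1567 on incubated arrays (1789 to 1942 on fresh arrays). Under that scaling 3 of the 18 were called higher and 10 lower. Under all 4 scalings, 7 of the 18 were called in 1 direction: Timp1, Tnc, 1 probe set of Timp2 and 1 of Timp3 lower, and 2 of Ccn1 and 1 of Lox higher. Against fresh membranes, which are shared with the first comparison, dexamethasone-treated membranes had 14 of 18 called higher and 2 lower, beside 37.8% and 38.4% of all tested probe sets.

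**Figure D1:**
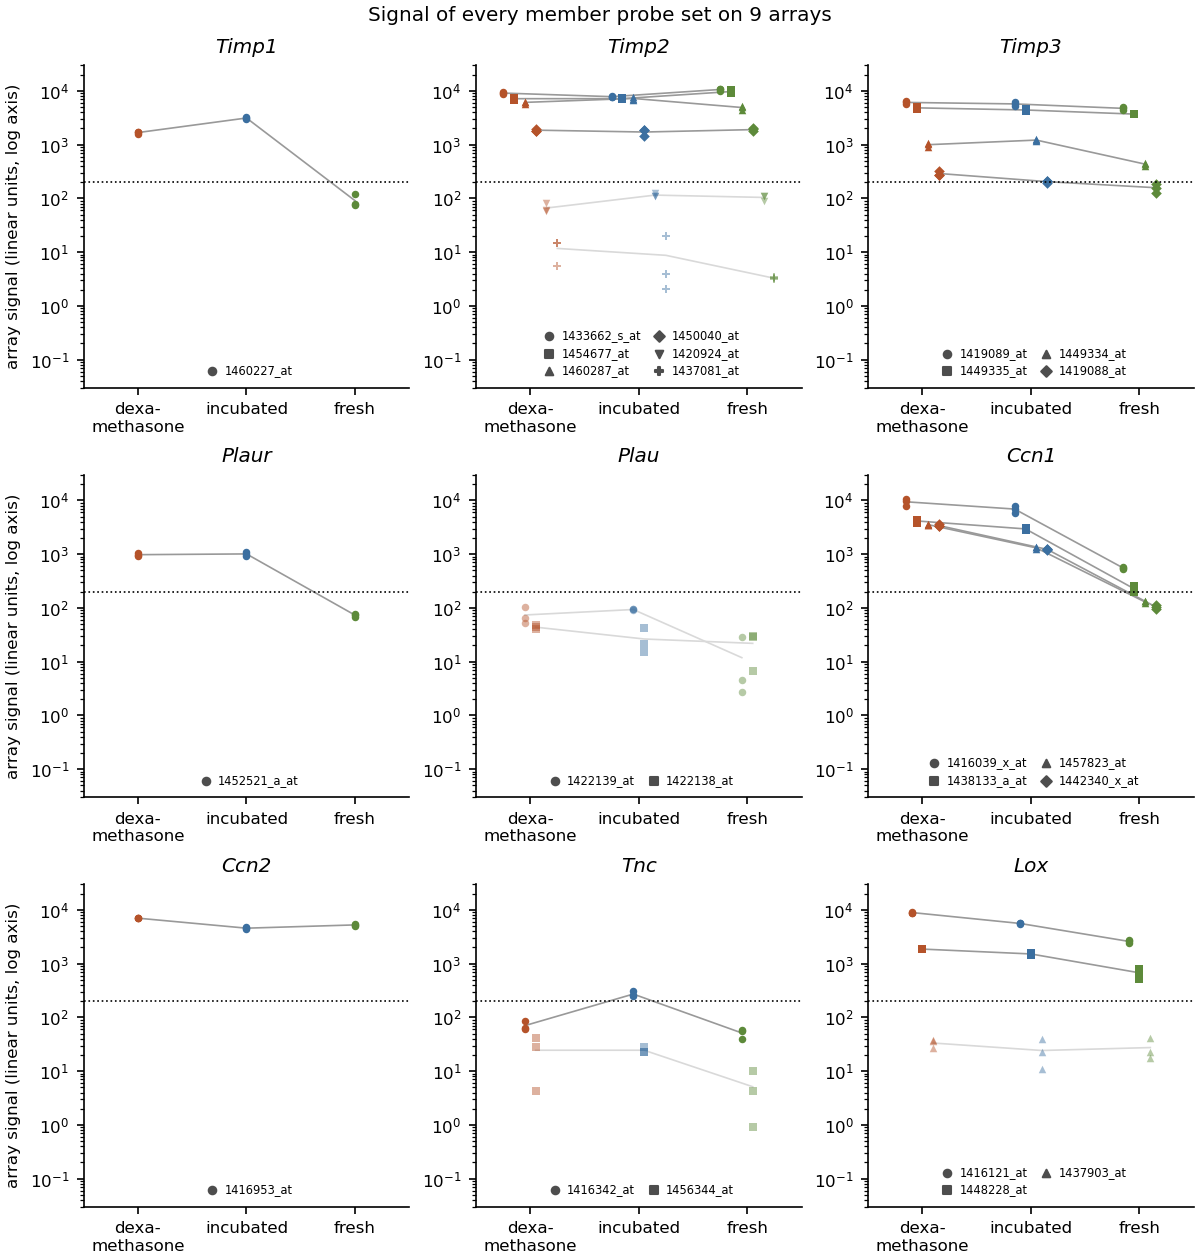
Signal (linear units on a log axis) of all 24 member probe sets on 9 arrays, 1 panel per gene, with dexamethasone, incubated and fresh arrays from left to right. Points are single arrays, lines join group means, pale symbols are untested probe sets and the dotted line is a signal of 200; Timp1 has arrays at 1564 to 1751, 2962 to 3253 and 75.5 to 118.8 in the 3 groups.

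**Figure D2:**
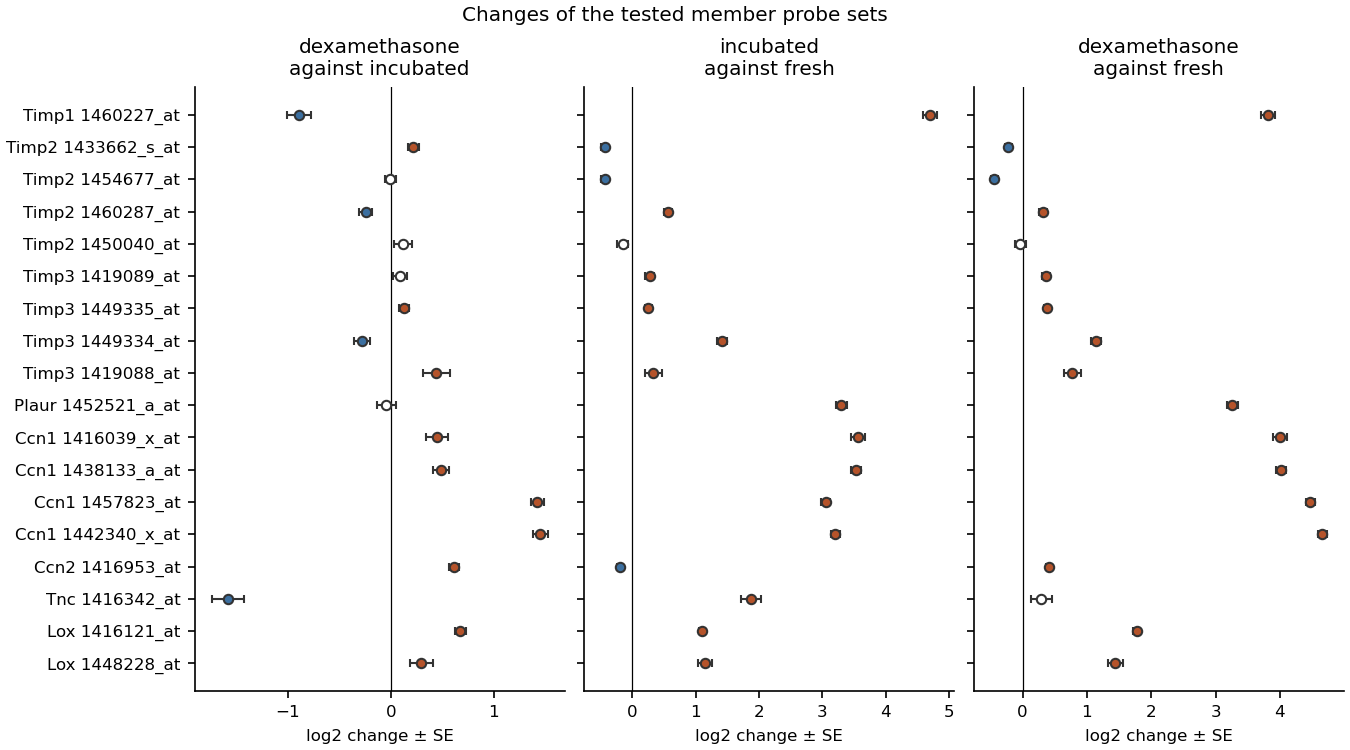
Log2 change ± SE (n = 3 arrays per group) of the 18 tested member probe sets in each comparison, on separate axes, with red for called higher, blue for called lower and white for not called. Incubated against fresh holds 14 red points, up to 4.71 for Timp1, and dexamethasone against incubated holds 10, a count that falls to 3 with scaling to hybridization controls.

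Of the metalloproteinase inhibitors, Timp1 (chromosome X, 20870166 to 20874737 in GRCm38.p6), a secreted inhibitor inducible in many injured tissues, moved most. Its single probe set had signals of 1717, 1564 and 1751 on the dexamethasone arrays, 3253, 2962 and 3181 on the incubated arrays, and 75.5, 77.6 and 118.8 on the fresh arrays. The 3 groups did not overlap, with fresh membranes under the floor and incubated membranes highest. Timp1 was at least 15.7-fold higher in incubated than in fresh membranes (fitted log2 change 4.71 ± 0.11, adjusted p = 2.56e-12, limma). Dexamethasone-treated membranes were at 0.540 of the incubated level on the log2(signal + 32) scale (log2 change -0.89 ± 0.11, adjusted p = 3.49e-05), and this change lay between -1.37 and -0.84 under the 4 scalings. They stayed at least 8.38-fold above fresh membranes.

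Timp3 (chromosome 10, 86300412 to 86349505) encodes an inhibitor that stays bound to the matrix. Its brightest probe set (1419089_at) averaged 6105 ± 383 in dexamethasone, 5727 ± 472 in incubated and 4732 ± 229 in fresh arrays (SD, n = 3 each). A probe set from the same sequence record, 1449335_at, averaged 4839 ± 208, 4416 ± 200 and 3702 ± 21.2 in the dexamethasone, incubated and fresh groups. Both were called higher in incubated than in fresh membranes, by 0.27 ± 0.067 and 0.25 ± 0.049, with no overlap between these groups. With dexamethasone the first was not called (0.09 ± 0.067, adjusted p = 0.26), and the second was called higher by 0.13 ± 0.049 (adjusted p = 0.0406) but lower, by -0.36, under scaling to the hybridization controls. That upward call was also lost with no filter (adjusted p = 0.0772), without a trend (0.0915), with only the 2 compared groups (0.0658) and on leaving out 4 of the 6 arrays in turn.

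The remaining Timp3 probe sets were dimmer and differed from these in size. Signals of 1449334_at were 1012, 913 and 1068 on dexamethasone arrays, 1156, 1256 and 1236 on incubated arrays, and 406, 465 and 434 on fresh arrays. The groups were apart, and this probe set was called higher in incubated than in fresh membranes by 1.42 ± 0.077 (adjusted p = 3.5e-09) and lower with dexamethasone by -0.28 ± 0.077 (adjusted p = 0.00859). The dimmest, 1419088_at, averaged 291 ± 33.4 in dexamethasone, 205 ± 13.5 in incubated and 158 ± 30.5 in fresh arrays (SD, n = 3 each), close to the floor. Its calls, 0.33 ± 0.13 (adjusted p = 0.0405) for incubated against fresh and 0.44 ± 0.13 (adjusted p = 0.0146) for dexamethasone against incubated, were lost on leaving out 4 and 2 of the 6 arrays in turn, the first also with no filter (adjusted p = 0.0763) and the second under each of the 3 other scalings (adjusted p = 0.0568 to 0.959). With the replicate letter as a block, which the letters do not support as a pairing, the first had an adjusted p of 0.0546.

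Timp2 (chromosome 11, 118301061 to 118355411), which besides inhibiting helps to activate proMMP2 on the cell surface, had 4 tested probe sets that did not move together. The brightest, 1433662_s_at, had 9589, 8619 and 9126 in dexamethasone, 7966, 7727 and 7734 in incubated, and 9989, 10960 and 10936 in fresh arrays. It was called lower in incubated than in fresh membranes by -0.44 ± 0.052 (adjusted p = 5.77e-06), although this shrank to -0.0012 under median centring and was not called under the hybridization controls (-0.10). The neighbouring 1454677_at, from the same record, averaged 7162 ± 232, 7177 ± 211 and 9726 ± 720 in the dexamethasone, incubated and fresh groups (SD, n = 3 each), with a change of -0.43 ± 0.055 in incubated against fresh that turned to 0.01 under median centring.

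The third Timp2 probe set went the other way. 1460287_at, from another record, had 6281, 5720 and 6333 on dexamethasone arrays, 7744, 7076 and 6891 on incubated arrays, and 4497, 5172 and 5060 on fresh arrays. It was called higher in incubated than in fresh membranes by 0.56 ± 0.065 (adjusted p = 5.23e-06) and lower with dexamethasone by -0.24 ± 0.065 (adjusted p = 0.00767), both in the same direction under all 4 scalings. The fourth, 1450040_at, from the same record as 1460287_at, overlapped in both main comparisons and was not called as deposited (-0.15 ± 0.088 and 0.12 ± 0.088). Its sign turned under median centring and under hybridization-control scaling in both comparisons. With dexamethasone, 1433662_s_at was called higher than in incubated membranes by 0.22 ± 0.052 (adjusted p = 0.00355) but lower, by -0.27, under hybridization-control scaling. In the same comparison 1454677_at was not called as deposited (-0.0031 ± 0.055). It was called lower under median centring (-0.16, adjusted p = 0.0303, limma) and hybridization-control scaling (-0.49, adjusted p = 4.79e-05). The 2 untested Timp2 probe sets stayed at 57.1 to 127.8 and 2.1 to 20.2 over the 9 arrays.

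A ratio of 2 bright probe sets on 1 array depends little on how that array was scaled, so Timp1 was also set against Timp3 (1419089_at) as a difference of log2(signal + 32) values. The log2 ratio of Timp1 to Timp3 was -1.85, -1.84 and -1.85 on dexamethasone arrays, -0.92, -0.82 and -0.84 on incubated arrays, and -5.39, -5.46 and -5.04 on fresh arrays. The groups did not overlap. With dexamethasone the ratio differed from that in incubated membranes by -0.98 (p = 0.1, exact two-sided permutation test), and by -0.99 to -0.94 under quantile normalization and pseudocounts of 1 and 100. That p is the smallest that 3 arrays against 3 allow, and it is 0.133 after adjustment over 4 such tests. On all 3 fresh arrays Timp1 was under the floor, so the size of the difference between incubated and fresh membranes is not measured. It was 4.43 as computed and 3.82 to 4.85 under the same alternatives, and it was at least 3.69 with fresh Timp1 set to 200 and no pseudocount.

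The urokinase receptor gene Plaur (chromosome 7, 24460937 to 24475970) had signals of 1029, 933 and 971 on dexamethasone arrays, 915, 1118 and 997 on incubated arrays, and 74.8, 67.9 and 77.2 on fresh arrays. All 6 cultured arrays lay far above the 3 fresh ones, which were under the floor. Plaur was at least 5.03-fold higher in incubated than in fresh membranes (fitted log2 change 3.30 ± 0.09, adjusted p = 7.42e-12). Between dexamethasone and incubated membranes the arrays overlapped, and Plaur was not called (-0.04 ± 0.09, adjusted p = 0.723). Under hybridization-control scaling the same comparison gave -0.52 with an adjusted p of 9.74e-05.

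Plau itself, the urokinase gene (chromosome 14, 20836662 to 20843388), stayed under the floor on every array. One of its probe sets, 1422139_at, had 53.2, 104.3 and 64 in dexamethasone, 95.3, 94.1 and 90.6 in incubated, and 2.7, 28.3 and 4.6 in fresh arrays. The cultured arrays all lay above the fresh ones, but no fold is given for values of this size. The other, 1422138_at, had 40.7 to 47.7, 14.9 to 43.1 and 6.7 to 30.4 in the dexamethasone, incubated and fresh groups. No ratio of Plaur to Plau was made, since Plau had no tested probe set.

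Ccn1 (chromosome 3, 145646971 to 145649985), an immediate early gene formerly called Cyr61, had 4 tested probe sets, and all 4 were called higher in incubated than in fresh membranes. The brightest, 1416039_x_at, had 7879, 9895 and 10486 on dexamethasone arrays, 5954, 6786 and 7955 on incubated arrays, and 585, 551 and 522 on fresh arrays. For 1438133_a_at the signals were 4288, 4274 and 3873 in dexamethasone, 3004, 3038 and 2799 in incubated, and 234, 252 and 196 in fresh arrays. On both, every cultured array was far above every fresh one, and the rise in incubated membranes was 3.56 ± 0.11 (adjusted p = 2.14e-11) and 3.53 ± 0.079 (adjusted p = 1.38e-12). The other probe sets, 1457823_at and 1442340_x_at, share 1 sequence record and were at least 6.53-fold and 6.13-fold higher in incubated than in fresh membranes.

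With dexamethasone the same 4 probe sets differed in the size of their change. Signals of 1457823_at were 3509, 3615 and 3532 on dexamethasone arrays, 1360, 1338 and 1222 on incubated arrays, and 133, 121 and 135 on fresh arrays. For 1442340_x_at they were 3576, 3284 and 3370.0 in dexamethasone, 1269, 1225 and 1185 in incubated, and 114, 105 and 94.3 in fresh arrays. On these the dexamethasone arrays were well apart from the incubated ones, and the rise was 1.42 ± 0.066 (adjusted p = 9.96e-09) and 1.45 ± 0.072 (adjusted p = 1.61e-08), with 0.94 to 1.42 and 0.97 to 1.45 under the 4 scalings. On 1438133_a_at the increase was 0.49 ± 0.079 (adjusted p = 0.000243) and vanished, at -1e-04, under hybridization-control scaling. On 1416039_x_at, whose groups overlapped, it was 0.45 ± 0.11 (adjusted p = 0.00445) and turned to -0.04 under that scaling. Against fresh membranes, dexamethasone-treated membranes were at least 17.8-fold and 17.0-fold higher on 1457823_at and 1442340_x_at.

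Ccn2 (chromosome 10, 24595442 to 24598683), which encodes connective tissue growth factor, was measured by a single probe set with signals well above the floor in all groups. It had 7154, 6980 and 6921 in dexamethasone, 4394, 4750 and 4565 in incubated, and 5314, 4975 and 5484 in fresh arrays. No groups overlapped, with dexamethasone highest and incubated lowest. Ccn2 was called lower in incubated than in fresh membranes by -0.20 ± 0.049 (adjusted p = 0.00249), but the sign turned under median centring (0.24, adjusted p = 0.00108) and under hybridization-control scaling (0.14, adjusted p = 0.0598), so its direction was not settled. With dexamethasone Ccn2 was called higher than in incubated membranes by 0.62 ± 0.049 (adjusted p = 8.81e-07), which kept its sign but lost its call under hybridization-control scaling (0.13, adjusted p = 0.0739). The rise against fresh membranes, 0.42 ± 0.049 (adjusted p = 5.55e-06), was called under all 4 scalings.

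The log2 ratio of Ccn1 (1416039_x_at) to Ccn2 within an array, each as signal + 32, was 0.14, 0.50 and 0.60 on dexamethasone arrays, 0.44, 0.51 and 0.80 on incubated arrays, and -3.12, -3.10 and -3.32 on fresh arrays. It was 3.76 higher in incubated than in fresh membranes with no overlap (exact two-sided permutation test, p = 0.1, the smallest possible). Dexamethasone and incubated arrays overlapped, with a difference of -0.17 (p = 0.5, exact permutation test). That difference was 0.34 when all tested Ccn1 probe sets were averaged, so whether the 2 genes changed unequally with dexamethasone depended on the Ccn1 probe sets used.

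Tnc (chromosome 4, 63959785 to 64047015), the gene of tenascin-C, a matrix protein deposited in healing tissue, passed the floor only in incubated membranes. Signals of 1416342_at were 63.2, 87.3 and 60.1 on dexamethasone arrays, 253, 304 and 258 on incubated arrays, and 58.6, 56.2 and 39.2 on fresh arrays. The incubated arrays stood apart from both other groups. Tnc was at least 1.35-fold higher in incubated than in fresh membranes (fitted log2 change 1.87 ± 0.16, adjusted p = 2.49e-07). In dexamethasone-treated membranes it was at least 1.35-fold lower than in incubated membranes (fitted log2 change -1.58 ± 0.16, adjusted p = 5.65e-06), and both calls were made under all 4 scalings. Since Tnc was tested only through the incubated group, its being higher there was partly set by the filter. Dexamethasone and fresh membranes were both under the floor, and their difference was not called as deposited (adjusted p = 0.111), although dexamethasone was called higher under quantile normalization (0.48, adjusted p = 0.0143) and median centring (0.46, adjusted p = 0.0173) and these arrays did not overlap. The untested 1456344_at stayed at 0.9 to 40.8 over the 9 arrays.

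Lox (chromosome 18, 52516060 to 52529867), the gene of lysyl oxidase, was highest in dexamethasone, then in incubated, then in fresh membranes on both tested probe sets, which come from 1 record. On 1416121_at the signals were 8872, 8729 and 9242 in dexamethasone, 5791, 5366 and 5632 in incubated, and 2720.2, 2434 and 2639 in fresh arrays. No groups overlapped. Its rise was 1.10 ± 0.052 (adjusted p = 1.13e-09) in incubated against fresh membranes and 0.67 ± 0.052 (adjusted p = 6.89e-07) in dexamethasone against incubated membranes, the second ranging from 0.18 to 0.67 under the 4 scalings. On 1448228_at the signals averaged 1866 ± 15.8 in dexamethasone, 1515 ± 88.4 in incubated and 675 ± 138 in fresh arrays (SD, n = 3 each). This probe set rose by 1.15 ± 0.11 in incubated against fresh membranes (adjusted p = 9.13e-07). Its call with dexamethasone (0.30 ± 0.11, adjusted p = 0.0405) was lost on leaving out 5 of the 6 arrays in turn, with no filter (adjusted p = 0.0787), without a trend (0.0739) and under median centring (0.294), and turned to -0.19 under hybridization-control scaling. The untested 1437903_at stayed at 11 to 41.9.

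**Figure D3:**
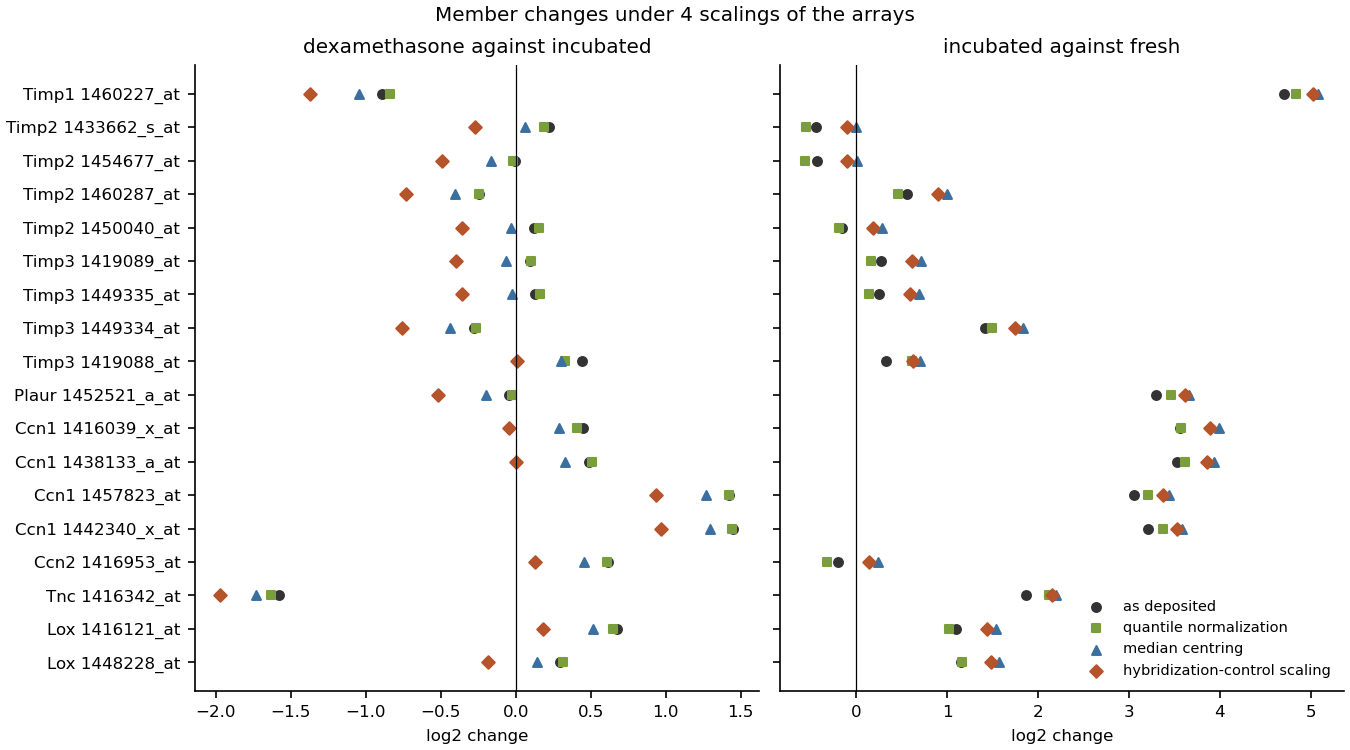
Log2 change of the 18 tested member probe sets under 4 scalings of the arrays, dexamethasone against incubated on the left and incubated against fresh on the right. In the right panel Timp1, Plaur, Ccn1, Tnc and Lox lie to the right of 0 under each scaling; in the left panel hybridization-control scaling moves points to the left, and Ccn1 1416039_x_at, 0.45 as deposited, lies at -0.04.

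Members measured by several probe sets allowed changes to be compared within 1 gene and 1 array. The 3 pairs below were chosen after their values were seen and are given as log2 ratios of signal + 32 with no test. In Ccn1 the log2 ratio of 1457823_at to 1438133_a_at was -0.29, -0.24 and -0.13 on dexamethasone arrays, -1.13, -1.16 and -1.18 on incubated arrays, and -0.69, -0.89 and -0.45 on fresh arrays, where 1457823_at was under the floor. In Timp2 the ratio of 1460287_at to 1454677_at was -0.20, -0.27 and -0.21 on dexamethasone arrays, 0.09, 0.03 and -0.09 on incubated arrays, and -1.05, -1.03 and -0.87 on fresh arrays. In Timp3 the ratio of 1449334_at to 1449335_at was -2.25, -2.29 and -2.19, then -1.95, -1.71 and -1.84, then -3.10, -2.90 and -3.01 on the dexamethasone, incubated and fresh arrays. In all 3 pairs the groups were apart on these arrays, which for pairs chosen this way is a description only. A single summary value per gene does not show such differences.

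**Figure D4:**
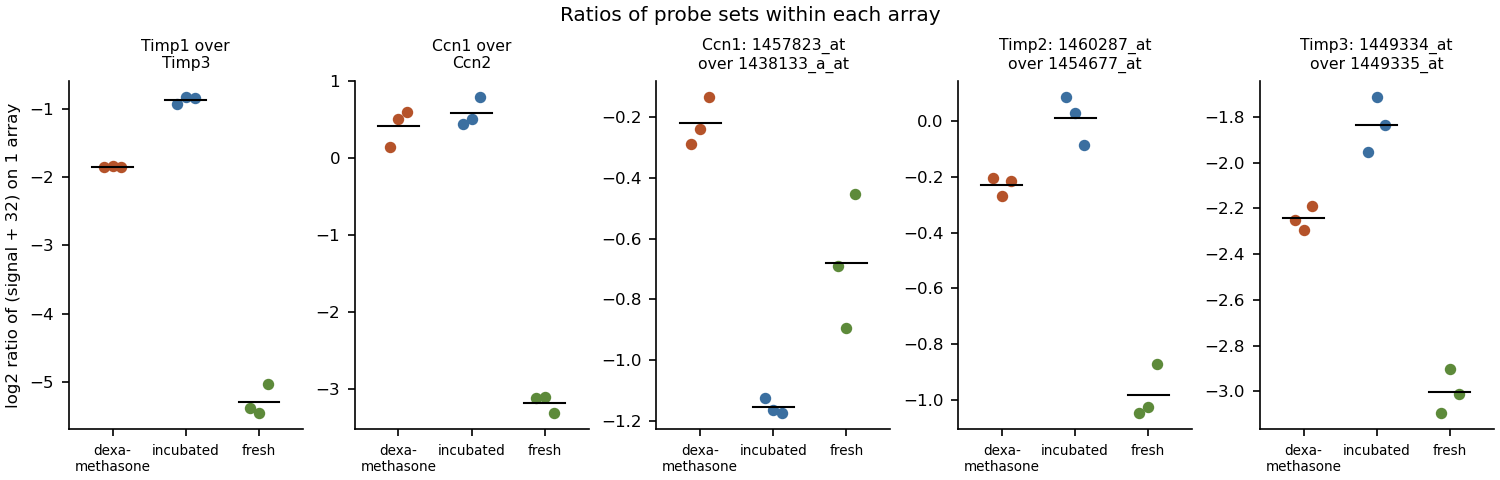
Log2 ratio of 2 probe sets (signal + 32) on each array for 5 pairs, each on its own axis, with dexamethasone, incubated and fresh arrays from left to right, 1 point per array and a bar at the group mean. The groups are apart in 4 of the pairs, and in Ccn1 over Ccn2 the dexamethasone arrays (0.14 to 0.60) overlap the incubated arrays (0.44 to 0.80).

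Other genes of the same processes were taken from 5 lists, each gene by its brightest tested probe set. Among all 10242 tested genes, 36.0% were called higher and 40.7% lower in incubated than in fresh membranes, with a median log2 change of -0.04, and 22.3% and 28.7% were called higher and lower with dexamethasone, with a median of -0.03. Of the metalloproteinases and further inhibitors, 11 of 25 listed genes were tested, with 2 called higher and 7 lower in incubated than in fresh membranes (median -0.58). Under median centring 10 were tested, with 4 called higher and 4 lower. Mmp8, the neutrophil collagenase, was at least 1.66-fold lower (73.2 against 332.7), Timp4 at least 1.25-fold lower (11.0 against 252.3, untested under the other scalings), and Reck, a membrane-anchored inhibitor, was lower by -0.72 ± 0.063 (adjusted p = 3.16e-07). With dexamethasone none of the 11 was called higher and 5 were called lower (median -0.09), among them Mmp14, the membrane-type collagenase, by -0.51 ± 0.059 and the sheddase Adam17 by -0.49 ± 0.081. Mmp9 was also called, with means of 5.67 in dexamethasone and 145 in incubated membranes, both under the floor, so no fold is given.

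In plasminogen activation, 8 of 12 listed genes were tested, with 4 called higher and 2 lower in incubated than in fresh membranes (median 0.53). Under median centring 7 were tested and all 7 were called higher, while Vtn, called lower as deposited (-1.80), missed the filter. S100a10, a subunit of the annexin A2 plasminogen receptor, rose by 1.73 ± 0.058 (12834 against 3850.3), and the matriptase gene St14 rose by 0.99 ± 0.053. Serpinb2, plasminogen activator inhibitor 2, was at least 2.575-fold higher, with means of 523 in incubated and 12.6 in fresh membranes. With dexamethasone 4 were called higher and 1 lower (median 0.07), a split that became 0 and 5 of 7 tested under hybridization-control scaling. The tissue activator gene Plat was lower by -0.53 ± 0.062 (2382 against 3465), St14 higher by 0.43 ± 0.053 (but -0.06 under hybridization-control scaling) and the clearance receptor gene Lrp1 higher by 0.56 ± 0.071.

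Of the matricellular and provisional matrix genes, 8 of 17 were tested, with 5 called higher and 3 lower in incubated than in fresh membranes (median 0.60). Under median centring 7 were tested, with 5 called higher and 0 lower, while Ccn4, called lower as deposited (-0.68), missed the filter. Tnxb, the gene of tenascin-X, was at least 4.47-fold higher (898 against 102.0), Ccn3 at least 1.86-fold and the thrombospondin gene Thbs1 at least 1.32-fold. With dexamethasone 1 was called higher and 5 lower (median -0.42). Sparcl1 fell by 1.36 on the log2 scale (1874 in dexamethasone, against 4856 in incubated membranes), the periostin gene Postn was lower by -0.88 ± 0.13, and Thbs1 rose by 0.94 ± 0.098.

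Of the YAP and TEAD factors and targets, 11 of 15 were tested, with 7 called higher and 3 lower in incubated than in fresh membranes (median 0.47), or 9 and 1 under median centring. The LIM protein gene Ajuba rose by 1.04 ± 0.044 and the receptor kinase gene Axl by 2.08 ± 0.092, while Crim1 was lower by -1.27 ± 0.060. With dexamethasone 4 were called higher and 1 lower (median 0.17), which became 2 and 6 under hybridization-control scaling. Ptpn14 rose by 0.90 ± 0.061 and Crim1 by 0.75 ± 0.060 with dexamethasone, and Axl was lower by -0.97 ± 0.092 (517 against 1039).

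Collagen processing and cross-linking had 12 of 18 genes tested, of which 10 were called higher and none lower in incubated than in fresh membranes (median 0.63). The transglutaminase gene Tgm2 rose by 1.32 ± 0.065, the collagen chaperone gene Serpinh1 by 1.03 ± 0.079 and the lysyl oxidase relative Loxl1 by 0.77 ± 0.069. With dexamethasone 4 were called higher and 2 lower (median 0.07), which became 1 and 9 under hybridization-control scaling. The lysyl hydroxylase gene Plod2 rose by 0.81 ± 0.062 (2879 against 1629), Tgm2 by 0.43 ± 0.065 (but -0.06 under hybridization-control scaling), and the procollagen proteinase gene Bmp1 was at least 1.25-fold lower. Loxl2 and Fkbp10 were not analysed here. Since all 5 lists hold genes tested only through the group where they were bright, these counts describe the genes that passed the filter.

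**Figure D5:**
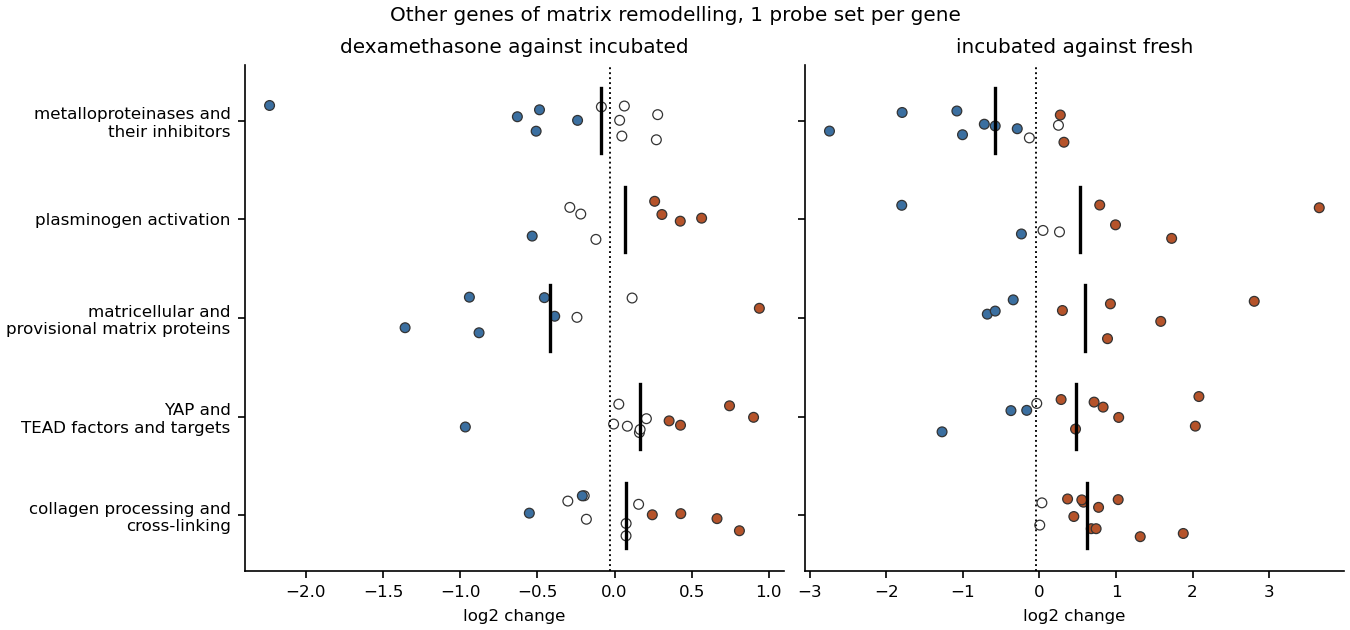
Log2 change of each tested gene in 5 lists of matrix remodelling genes, dexamethasone against incubated on the left and incubated against fresh on the right, with red for called higher, blue for called lower and white for not called. Bars are list medians and the dotted line is the median of all tested genes; on the right collagen processing has 10 red and no blue points, and on the left its 4 red and 2 blue become 1 and 9 under hybridization-control scaling.

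The 2 genes whose pattern over the 9 arrays lay nearest to that of each member were found among 16554 tested probe sets of other genes, by the Euclidean distance between log2 values centred on each probe set's mean. Nearest to Timp1 were the chemokine gene Ccl2 (distance 0.53), with means of 927, 2280.1 and 44.5 in dexamethasone, incubated and fresh arrays, and Igfbp3 (0.70), with 2489, 5858 and 169.9. Nearest to Tnc were Tgfbi (0.45) and Cthrc1 (0.47), the second with 141, 467 and 120.5 in the 3 groups. Both pairs were highest in incubated membranes, as their members were, which follows from choosing them by that pattern. Nearest to Plaur were the NF-kappaB subunit gene Relb (0.32) and Rras2 (0.45), nearest to Ccn1 Myc (0.40) and the TWEAK receptor gene Tnfrsf12a (0.52), and nearest to Lox Tmcc3 (0.19) and Csrnp1 (0.21). Myc had 1158, 787 and 38.7, and Csrnp1 1549, 987 and 406 in the dexamethasone, incubated and fresh groups. Neighbours were Mbnl2 (0.094) and Sptbn1 (0.12) for Ccn2, Vgll4 (0.057) and Xrcc1 (0.11) for Timp2, and the ribosomal protein genes Rps3 (0.087) and Rpl7a (0.096) for Timp3. The brightest probe sets of these members, used here, changed less between incubated and fresh membranes, and small changes alone give small distances. Timp3 1449334_at, which rose by 1.42 in that comparison, was not used.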

How the data were processed

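Per the labels' protocols, an RNeasy Micro kit yielded the RNA, which went through 2 rounds of in vitro transcription. Each probe set has 1 deposited intensity on a linear scale, and the authors set the target signal of each array to 500, per the labels. What summarised the probes is not given in the sources used here. Of 45101 probe sets, 64 were controls and 34945 had 1 gene symbol. Gene IDs of 204 probe sets were missing from the gene annotation, and their symbols were taken as given.

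Signals were tested as log2(signal + 32) with limma 3.58.1 (R 4.3.3): lmFit with 1 mean per group over all 9 arrays, eBayes with an intensity trend, and Benjamini-Hochberg adjustment over the 18913 probe sets that reached 200 on 3 or more arrays. The fit was also run on simulated data in which few probe sets changed, unlike these arrays, so that run does not bear on the choice of scaling. Probe sets ending in _s_at, _x_at or _a_at may hybridize to several transcripts. Members, lists and the rule for named genes (all member probe sets, of each list up to 3 called genes, those of smallest adjusted p in each main comparison, and the 2 nearest genes per member) were chosen with earlier results of these data known. Alternatives were 3 other scalings (quantile, median centring, 9 hybridization controls), a pseudocount of 1 or 100, floors of 100 and 400 or no filter, no trend, the 2 compared groups alone, the replicate letter as a block, and leaving out each array. Tables and figures used data.table (1.17.8), Python 3.11.15, pandas 2.3.3, NumPy 2.4.6 and matplotlib 3.10.9.

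Arrays with the same letter deviated from their group means with correlations of -0.062 to 0.164 (median -0.012, 9 pairs), against -0.157 to 0.153 for different letters (18 pairs), so the letters were not taken as a pairing.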

Additional observations from a re-analysis of the deposited data

How the results depend on the processing

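Scaling changed the results most. In incubated against fresh membranes, no member probe set was called lower (0, against 3) under median centring or hybridization-control scaling. Under these scalings Ccn2 turned to 0.2388 and 0.1359 and Timp2 1450040_at to 0.2804 and 0.1789, in that order. Timp2 1454677_at turned to 0.0057 under median centring. In dexamethasone against incubated membranes the upward calls fell to 6 under median centring and 3 under hybridization-control scaling, with 10 downward calls under the second. Signs turned under hybridization-control scaling for Ccn1 1416039_x_at (-0.0425) and 1438133_a_at (-1e-04), Timp3 1419089_at (-0.396) and 1449335_at (-0.3573), Timp2 1433662_s_at (-0.2694) and 1450040_at (-0.3603), and Lox 1448228_at (-0.1858). Median centring also turned Timp3 1419089_at (-0.066) and 1449335_at (-0.0278) and Timp2 1450040_at (-0.0343). In dexamethasone against fresh membranes median centring left 1 downward call and turned Timp2 1433662_s_at (0.0599) and 1450040_at (0.2461). The ratio of Ccn1 to Ccn2 with dexamethasone turned to 0.3359 with the mean over all probe sets.

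For all tested probe sets, incubated against fresh gave 11235 higher and 3612 lower under median centring and 9942 and 4274 under hybridization-control scaling, against 6620 and 7593, and 11518 lower with no filter. Dexamethasone against incubated gave 3130 and 7694, and 1260 and 13572, against 5116 and 4820, and dexamethasone against fresh gave 4684 lower under median centring, against 7263. Among the lists in incubated against fresh membranes, hybridization-control scaling gave 4 metalloproteinase genes called higher, and 0 plasminogen, 0 matricellular and 1 YAP and TEAD gene called lower, quantile normalization gave 1 plasminogen gene lower, and counting all probe sets gave 14 YAP and TEAD probe sets higher. With dexamethasone, hybridization-control scaling gave 8 metalloproteinase genes lower, 0 plasminogen genes higher and 5 lower, 2 YAP and TEAD genes higher and 6 lower, and 1 collagen processing gene higher and 9 lower. Quantile normalization gave 1 metalloproteinase gene higher and 2 plasminogen genes lower. Counting all probe sets gave 2 metalloproteinase, 7 plasminogen, 2 matricellular, 10 YAP and TEAD and 7 collagen processing probe sets higher, and 2 YAP and TEAD and 4 collagen processing probe sets lower. The 3 other scalings tested 10 of the 11 metalloproteinase, 7 of the 8 plasminogen and 7 of the 8 matricellular genes. The cause of the shifts above, beyond the scaling itself and the genes that missed the filter, was not tested.

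With the replicate block, the Timp3 1419088_at call in incubated against fresh membranes was lost (0.3288, adjusted p = 0.0546), and no other member call changed. Leaving out single arrays lost calls of Timp3 1419088_at, Timp3 1449335_at and Lox 1448228_at and of no other tested member probe set, though without any incubated array Tnc missed the filter and had no test. Signals under 200 limit Plau, the fresh levels of Timp1, Plaur and Timp3 1419088_at, and the fresh and dexamethasone levels of Tnc. The same holds for the fresh levels of Ccn1 1457823_at and 1442340_x_at.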
